A study of Mus musculus with 12 samples.

Results

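Established mouse induced pluripotent stem cells (iPSC) were compared with the mouse embryonic fibroblasts (MEF) from which such cells are made, the end points of a reprogramming series profiled by ATAC-seq. This assay uses the Tn5 transposase, which cuts and tags DNA where chromatin is open, so the reads that fall in a region measure its accessibility. The comparison takes the 6 libraries labelled iPSC or MEF of the 12 in the series, 3 per group. The iPSC were sorted for green fluorescence from an Oct4-GFP reporter and the MEF were not sorted, and both are labelled with the strain background Mixed (C57BL/6 x 129). The cells belong to what the labels call 3c enhanced reprogramming, and the meaning of 3c is not given in the sources used here. Sorting and cell type go together in this design, so their parts in any difference cannot be told apart.

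Fibroblasts hold open the enhancers of matrix, contractile and signalling genes, many of which carry binding sites of AP-1, Tead and Runx factors. Pluripotent cells close these sites and open others bound by Oct4, Sox2, Nanog, Esrrb and Klf factors. Promoters of widely used genes stay open in both cell types, and most of the difference between cell types is known to lie in distal elements.

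The count tables held 115000 regions on the mm10 build, made by merging the region lists of the 4 stages. The iPSC libraries held 23024328 to 26220683 reads and the MEF libraries 25916834 to 32229388. Reads inside regions came to 1331836, 1260159 and 1034936 in iPSC, against 6261903, 5384911 and 2933421 in MEF. This was 4.94% ± 0.395 of all reads in iPSC and 16.7% ± 5.37 in MEF (SD, n = 3 each), with no overlap (two-sided exact permutation p = 0.1, the smallest that 3 against 3 allows). MEF replicate 1 stood highest in this share, at 22.1%. If the reads outside regions were spread evenly, they would account for 48.9% ± 4.28 of the in-region reads of iPSC libraries and 13.8% ± 5.54 of those of MEF libraries (SD, n = 3 each). Region values below are CPM, in-region counts scaled to library size after TMM normalisation, so they are relative to the other regions of the same library. The mean was under the even-spread value in 16175 of the tested regions for iPSC and in 13172 for MEF, so at such regions a low value is not told apart from background. In bulk libraries, fewer cells with an open region and less opening per cell cannot be told apart.

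Labels were checked on marker genes, with the counts of all regions over a gene and 10 kb to either side added up. All 8 iPSC markers (Pou5f1, Nanog, Sox2, Esrrb, Zfp42, Dppa5a, Fgf4 and Utf1) were higher in iPSC and all 8 MEF markers (Col1a1, Col1a2, Thy1, Twist2, Prrx1, Pdgfrb, Postn and Fap) were lower, by edgeR's quasi-likelihood test at a Benjamini-Hochberg adjusted p under 0.05. Over all genes, 65.7% of 17540 were called, 32.1% higher and 33.7% lower, and the markers are read against that background.

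Promoter sequences are shown for 3 pluripotency genes whose start lay in a region that was higher in iPSC. Those of the BMP target Id3 and the collagen gene Col1a2, whose starts lay in lower regions, are shown as well. Each is the 250 bases before the annotated start, 5′ to 3′ on the gene's strand, from RefSeq on GRCm38.p6, which is mm10. Capitals mark matches on either strand to the octamer core ATGCAAA, the Sox core CATTGT, the Esrrb motif TCAAGGTCA, the Klf motif CCCCACCC, the AP-1 motif TGANTCA, the TEAD motif CATTCC, the CCAAT box CCAAT and the GC box GGGCGG. Matches may overlap, as the GC boxes of Id3 do.
Zfp42, chr8:43307010-43307259, minus strand: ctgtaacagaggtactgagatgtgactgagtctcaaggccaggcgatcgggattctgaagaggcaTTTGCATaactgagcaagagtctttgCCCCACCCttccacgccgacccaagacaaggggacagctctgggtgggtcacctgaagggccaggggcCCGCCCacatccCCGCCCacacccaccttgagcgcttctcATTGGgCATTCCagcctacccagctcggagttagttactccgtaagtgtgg
Nanog, chr6:122707239-122707488, plus strand: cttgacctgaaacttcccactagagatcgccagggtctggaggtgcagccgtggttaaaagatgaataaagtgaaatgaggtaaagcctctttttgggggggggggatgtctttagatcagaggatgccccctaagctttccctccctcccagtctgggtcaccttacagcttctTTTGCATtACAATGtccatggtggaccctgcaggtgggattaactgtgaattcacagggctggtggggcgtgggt
Pou5f1, chr17:35505782-35506031, plus strand: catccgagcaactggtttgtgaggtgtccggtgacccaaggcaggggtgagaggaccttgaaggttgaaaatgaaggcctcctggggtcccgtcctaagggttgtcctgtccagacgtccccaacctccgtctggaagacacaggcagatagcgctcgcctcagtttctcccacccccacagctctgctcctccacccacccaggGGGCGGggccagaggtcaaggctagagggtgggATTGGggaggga
Id3, chr4:136143572-136143821, plus strand: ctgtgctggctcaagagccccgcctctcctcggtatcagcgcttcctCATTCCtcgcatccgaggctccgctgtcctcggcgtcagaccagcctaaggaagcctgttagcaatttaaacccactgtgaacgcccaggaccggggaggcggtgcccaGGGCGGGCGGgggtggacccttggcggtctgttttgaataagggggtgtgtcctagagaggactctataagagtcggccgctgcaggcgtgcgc
Col1a2, chr6:4505368-4505617, plus strand: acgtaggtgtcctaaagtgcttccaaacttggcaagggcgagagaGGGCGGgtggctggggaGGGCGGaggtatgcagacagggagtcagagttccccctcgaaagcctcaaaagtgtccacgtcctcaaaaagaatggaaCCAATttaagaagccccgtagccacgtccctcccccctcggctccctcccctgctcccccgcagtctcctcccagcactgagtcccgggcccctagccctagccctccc
The Nanog sequence holds an octamer core 75 bases before the start and a Sox core 67 bases before it, separated by a single base, and Zfp42 holds an octamer core 185 bases before its start.

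The region over the Zfp42 start (chr8:43306751-43307500) had 43.4, 42.2 and 24.5 CPM in iPSC, against 1.19, 1.36 and 2.81 CPM in MEF. That over the Nanog start (chr6:122706951-122707750) had 24.2, 21.1 and 21.8 CPM in iPSC, against 1.58, 1.36 and 1.20 CPM in MEF. Every iPSC library lay above every MEF library at both, with log2 fold changes of 4.49 (SE 0.29, edgeR adjusted p = 1.43e-25) and 3.92 (SE 0.33, adjusted p = 2.80e-19). At the Pou5f1 start (chr17:35505751-35506150) the values were 11.4, 10.5 and 8.17 CPM in iPSC, against 0.594, 1.36 and 1.20 CPM in MEF. The groups did not overlap there either, and the log2 fold change was 3.26 (SE 0.44, adjusted p = 2.01e-10). The Id3 start region (chr4:136143251-136144100) had 14.9, 7.53 and 9.99 CPM in iPSC, against 44.8, 57.8 and 47.8 CPM in MEF, and the Col1a2 start region (chr6:4505101-4505900) had 15.6, 12.1 and 10.9 CPM in iPSC, against 40.2, 38.3 and 40.2 CPM in MEF. All iPSC libraries were below all MEF libraries at both, by log2 fold changes of -2.19 (SE 0.22, adjusted p = 1.19e-15) for Id3 and -1.60 (SE 0.22, adjusted p = 5.36e-10) for Col1a2.

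Over all genes, 12204 of 21263 promoter windows lay in a tested region, of which 2173 were in a region that was higher in iPSC, 5682 in a lower one and 4349 in one that was not called. An octamer core stood in 4.79% of the windows in higher regions, in 2.87% of those in lower regions in 3.86% of all windows and in 4.66% of those with no tested region. The Sox core stood in 6.12% of windows in higher regions, 5.32% of those in lower regions and 9.35% of all windows, and the Esrrb motif in 0.138%, 0.158% and 0.320%. A Klf motif stood in 16.1%, 10.4% and 10.04% in the same order. The AP-1 motif was in 3.50% of windows in higher regions, 4.45% of those in lower regions and 6.13% of all windows, and the CCAAT box in 32.6%, 41.7% and 35.4%. These shares describe letters in the 250 bases before a start and were not tested. The classes come from the model of all 12 libraries, and the direction of regions at gene ends depended on the fit. Of the called regions within 1 kb of a gene end, 39.2% were higher in that model. The share was 57.8% with the iPSC and MEF libraries alone, 61.2% with no filter and 9.25% with whole-library scaling.

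Of 71069 regions tested, 29026 were higher in iPSC and 29031 lower (40.8% each), so 81.7% were called at an adjusted p under 0.05 in edgeR's quasi-likelihood test. With TMM scaling the rises were larger than the falls: the median log2 fold change was 2.69 among higher regions and -1.81 among lower ones, and 4618 regions rose at least 16-fold while 351 fell as much. Among the higher regions, 24228 had an iPSC mean above 2 times the even-spread background. Among the lower regions 6096 did, while all 29031 had a MEF mean above 2 times the MEF background. This background takes a larger share of the iPSC reads, which limits how far a region can fall. Its part in the sizes of rises and falls was not tested. Libraries did not overlap in 27600 of the higher regions (38.8% of those tested) and 28032 of the lower ones (39.4%). Scaled to all reads of a library instead of in-region reads, 16839 regions were higher and 41083 lower, and since log2 fold changes are lower throughout on that scale, the sizes of rises and falls depend on it.

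The region lists themselves differed in size, with 28032 regions on the iPSC list and 85971 on the MEF list. Shared regions numbered 14645, which is 52.2% of the iPSC list and 17.03% of the MEF list. Regions on the iPSC list alone were higher in 99.4% of 12271 tested and those on the MEF list alone lower in 73.9% of 32322, and the lists were made from the same stages, so this is a description only. Of the 14620 tested regions on both lists, 27.8% were higher and 35.3% lower. Another 11856 tested regions were on neither list, having been listed in Stage 1 or Stage 2 cells, and 93.4% of them were higher in iPSC. Of those 11068 higher regions, 6789 had an iPSC mean above 2 times the even-spread background. The median over the class was 6.78 CPM in iPSC and 1.13 CPM in MEF. These regions are off the MEF list and could pass the read filter through other libraries, so the direction was favoured in advance. This share too is a description only.

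A larger share of the tested regions was called away from genes' ends than at them. Among 56404 regions farther than 1 kb from a gene end, 44.8% were higher, 41.2% lower and 14.0% not called. Among 14665 regions within 1 kb of a gene end, 25.5% were higher, 39.6% lower and 34.9% not called. Over 100 kb from any gene end 6.51% of regions were not called, and directly over a gene end 36.2%. Of the higher regions, 20702 of 25286 far from gene ends and 3526 of 3740 near them had an iPSC mean above 2 times the even-spread background. A region listed in 1 stage only could pass the read filter through that stage, so these shares are a description only. The direction at gene ends depended on the fit: 39.2% of the called regions there were higher in the model of all 12 libraries, 57.8% with the iPSC and MEF libraries alone and 9.25% with whole-library scaling. The share of in-region reads within 1 kb of a gene end was 31.8% ± 1.10 in iPSC and 30.8% ± 0.620 in MEF (SD, n = 3 each, two-sided exact permutation p = 0.3). By chromosome, higher regions made up 44.6% on chromosome 1 and 32.4% on chromosome 19, with lower regions at 39.4% and 45.7%.

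**Figure D1:**
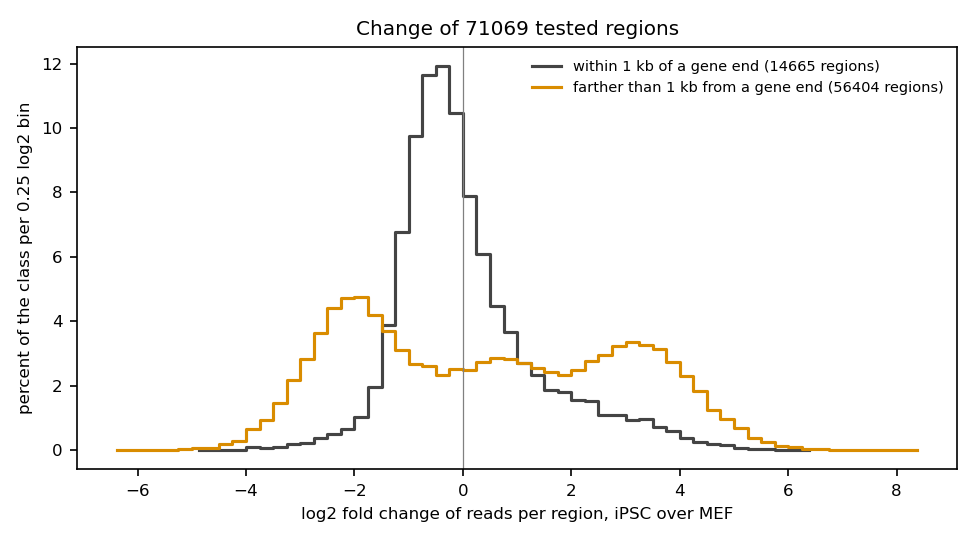
Distribution of the log2 fold change of reads per region, iPSC over MEF, as the percent of each class in bins of 0.25 log2; grey, 14665 regions within 1 kb of a gene end, and orange, 56404 regions farther away. The regions near gene ends gather close to 0, while the others form a peak on each side of 0; under whole-library scaling the scale shifts toward lower values.

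Added up per gene, 5622 genes were higher in iPSC and 5906 lower of 17540 tested. The genes' values describe open chromatin near them, not their expression. Of all tested genes 7021 (40.0%) had at least 1 region higher and 1 lower, and this held for 3013 (50.1%) of the 6012 genes that were not called. A gene that was higher was often not called at its start: where the start could be placed in tested regions, the start was also higher in 43.2% of 2934 higher genes, not called in 41.6% and lower in 12.2%. Among 3668 lower genes the start was also lower in 73.4%. These shares are from the model of all 12 libraries, and the direction at gene ends depended on the fit, as given above. Of 71 named genes with regions within 1 kb of a start, 56 kept direction and call when those regions alone were used, 6 changed sign, 1 became called and 8 were no longer called (Dlx1, Fgf7, Kdm1a, Osmr, Plagl1, Tgfb1, Tgfbi and Tgfbr2). Under whole-library scaling 797 genes were higher and 15174 lower, as the median gene moved by -1.67 log2, so each list below is given with both medians. The median log2 fold change over all genes was -0.03, and -1.70 with whole-library scaling. Over all genes 32.1% were higher and 33.7% lower, and the counts of each list are read beside these shares.

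The core pluripotency factors, which hold each other's genes active in embryonic stem cells, were higher in 12 of 14 and lower in none. Their median log2 fold change was 1.49, and it turned to -0.19 under whole-library scaling, where the median of all genes was lower still. Nanog, a homeodomain factor of the inner cell mass, had 120, 114 and 102 CPM in iPSC, against 56.0, 52.8 and 43.2 CPM in MEF. Pou5f1, which encodes Oct4, had 89.0, 73.1 and 77.1 CPM in iPSC, against 45.0, 46.0 and 40.4 CPM in MEF. Sox2, the partner of Oct4 on DNA, had 49.2, 42.8 and 53.3 CPM in iPSC, against 14.2, 12.3 and 18.6 CPM in MEF. None of these overlapped between the groups, and the log2 fold changes were 1.12 for Nanog (SE 0.12, edgeR adjusted p = 7.64e-14), 0.85 for Pou5f1 (SE 0.12, adjusted p = 6.14e-09) and 1.73 for Sox2 (SE 0.18, adjusted p = 4.32e-14). With whole-library scaling Nanog stood at -0.56 and Pou5f1 at -0.82, both still above the median gene. L1td1, an RNA-binding protein of pluripotent cells, was at 116, 124 and 113 CPM in iPSC, against 6.53, 9.47 and 13.0 CPM in MEF. It stood clear of the MEF libraries at a log2 fold change of 3.70 (SE 0.15, adjusted p = 3.23e-35), and Tdgf1, a Nodal co-receptor, at 3.05 (SE 0.15, adjusted p = 7.69e-31).

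Lin28a, which encodes an RNA-binding protein that blocks let-7 maturation, was not called, at 36.2, 33.4 and 35.2 CPM in iPSC, against 24.8, 33.9 and 31.2 CPM in MEF. The groups overlapped, at a log2 fold change of 0.23 (SE 0.17, edgeR adjusted p = 0.22). Of its 4 regions 3 were higher, among them the one at its start at 2.99 (SE 0.50), while the one with the most reads, chr4:134000551-134001300, was lower and also lies at the end of a neighbouring gene, at -1.25 (SE 0.23, adjusted p = 6.46e-07). With regions linked to 1 gene only, Lin28a was called at 3.25.

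Naive pluripotency factors, which mark the ground state of mouse embryonic stem cells, were higher in 22 of 25 and lower in 2, with a median of 1.76 (0.10 under whole-library scaling). Zfp42, also known as Rex1 and used as a marker of this state, had 69.5, 78.6 and 51.4 CPM in iPSC, against 1.51, 1.52 and 5.62 CPM in MEF. Dppa5a, an RNA-binding protein of early embryos, had 148, 128 and 122 CPM in iPSC, against 5.52, 3.41 and 14.7 CPM in MEF. Nr0b1, the nuclear receptor Dax1, had 27.5, 24.1 and 28.5 CPM in iPSC, against 0.669, 0.947 and 2.81 CPM in MEF. The MEF libraries lay far below all iPSC libraries at these genes, with log2 fold changes of 4.80 for Zfp42 (SE 0.24, edgeR adjusted p = 7.42e-25), 4.30 for Dppa5a (SE 0.23, adjusted p = 2.71e-13) and 4.39 for Nr0b1 (SE 0.32, adjusted p = 8.90e-21). Esrrb, a nuclear receptor that sustains self-renewal, had 251, 233 and 244 CPM in iPSC, against 57.6, 67.4 and 76.5 CPM in MEF. Tfcp2l1, a Grainyhead-family factor of the same network, had 201, 180 and 160 CPM in iPSC, against 22.8, 23.1 and 26.3 CPM in MEF. Neither overlapped, and they rose by 1.88 (SE 0.10, adjusted p = 4.30e-29) and 2.93 (SE 0.12, adjusted p = 9.23e-36) on the log2 scale.

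Against this trend Tbx3, a T-box factor that is also used in limb and mesenchyme, fell to 42.7, 54.4 and 56.1 CPM in iPSC, against 82.8, 79.7 and 71.6 CPM in MEF. Its libraries did not overlap and its log2 fold change was -0.64 (SE 0.13, edgeR adjusted p = 9.34e-06), though 2 of its 3 tested regions were higher. Klf4, a zinc finger factor and a reprogramming factor, had 84.7, 72.3 and 74.2 CPM in iPSC, against 60.1, 70.1 and 68.5 CPM in MEF. It was not called, at a log2 fold change of 0.23 (SE 0.12, adjusted p = 0.074), and without MEF replicate 2 it was, at 0.31 (adjusted p = 0.033). Myc, the proto-oncogene often added to that mix, was higher at 120, 113 and 109 CPM in iPSC, against 89.5, 76.0 and 72.3 CPM in MEF. All iPSC libraries exceeded all MEF libraries, at 0.51 (SE 0.10, adjusted p = 1.50e-05).

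**Figure D2:**
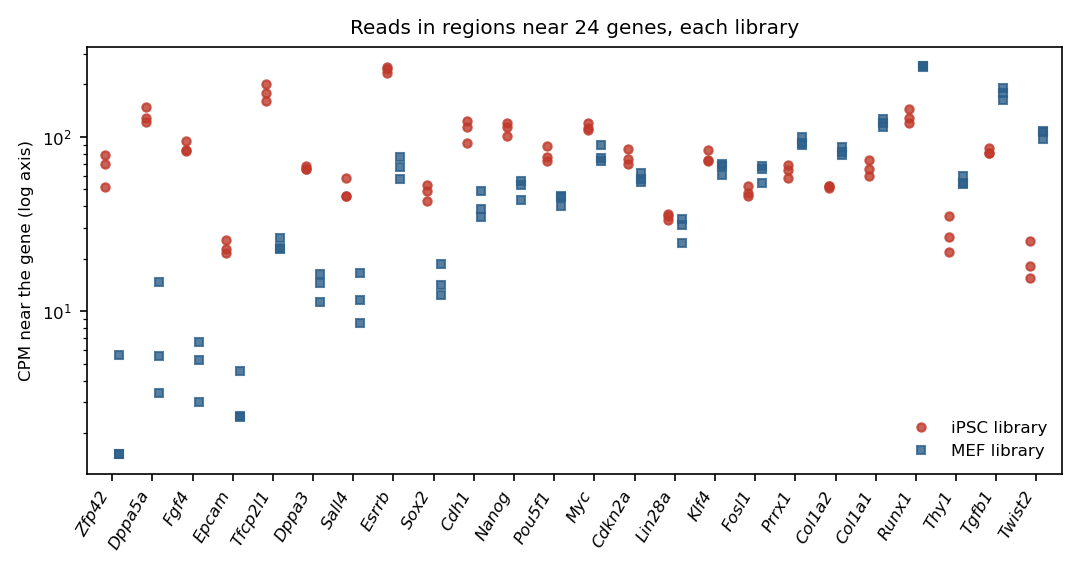
Summed CPM of the regions near 24 genes in each library (log axis), ordered by log2 fold change, with iPSC libraries as circles and MEF libraries as squares. Zfp42, Dppa5a and Fgf4 stand furthest apart on the left, Lin28a overlaps between the groups, and Twist2 on the right is lowest in iPSC; on whole-library scaling all iPSC values move down together.

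Within loci, single regions differed in the size and direction of their change. The largest rise and fall at each locus were picked for display, so that they exceed the change of the sum follows from the choice. At Pou5f1 the region upstream of the start, chr17:35503701-35504400, had 22.7, 12.8 and 20.9 CPM in iPSC, against 0.990, 1.59 and 2.01 CPM in MEF. It was far above every MEF library, at a log2 fold change of 3.66 (SE 0.35, edgeR adjusted p = 2.32e-16), and the enhancer of this gene that naive cells use is known to lie upstream of its start. On the other side chr17:35516601-35517350, which also lies at the end of a neighbouring gene, had 28.4, 24.1 and 18.2 CPM in iPSC, against 39.8, 42.6 and 33.7 CPM in MEF, and was lower in all iPSC libraries, at -0.71 (SE 0.19, adjusted p = 0.00035). That call was lost with the iPSC and MEF libraries alone (-0.37, adjusted p = 0.080), with libraries thinned to equal in-region reads (-0.48, adjusted p = 0.055) and with no filter (-0.36, adjusted p = 0.10). Nanog had a region over its start at 3.92, a further one downstream (chr6:122715751-122716350) at 4.05 (SE 0.37, adjusted p = 1.38e-17) and an upstream one (chr6:122702251-122703350) that was not called at 0.05 (SE 0.16). That last region held the most reads of the locus, at 61.8, 57.3 and 42.7 CPM in iPSC, against 58.4, 55.5 and 41.4 CPM in MEF.

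Esrrb had 16 tested regions, of which 13 were higher and 2 lower. The largest log2 fold changes were at regions inside the gene, away from the annotated start. The region with the most iPSC reads, chr12:86501401-86502350, had 42.6, 37.7 and 32.7 CPM in iPSC, against 0.990, 1.36 and 2.01 CPM in MEF, with every iPSC library above all of MEF at a log2 fold change of 4.76 (SE 0.28, edgeR adjusted p = 5.01e-28). The region at the annotated start rose by 0.85 (SE 0.31, adjusted p = 0.0084).

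Myc and Klf4, whose starts were open in both cell types, changed at flanking regions. At Myc the region chr15:61978751-61979400 had 17.8, 18.8 and 19.98 CPM in iPSC, against 0.198, 1.13 and 2.01 CPM in MEF, and chr15:61998701-61999500 had 6.40, 5.27 and 3.63 CPM in iPSC, against 14.7, 15.4 and 12.4 CPM in MEF. The groups were apart at each, at log2 fold changes of 4.25 (SE 0.39, edgeR adjusted p = 3.71e-17) and -1.45 (SE 0.33, adjusted p = 5.48e-05), and the 3 regions between were not called. At Klf4 the region chr4:55519501-55520100 was higher at 2.30 (SE 0.51, adjusted p = 3.45e-05) and chr4:55541551-55542150 lower at -1.37 (SE 0.36, adjusted p = 0.00038), while the one over the start was not called at -0.19 (SE 0.16).

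**Figure D3:**
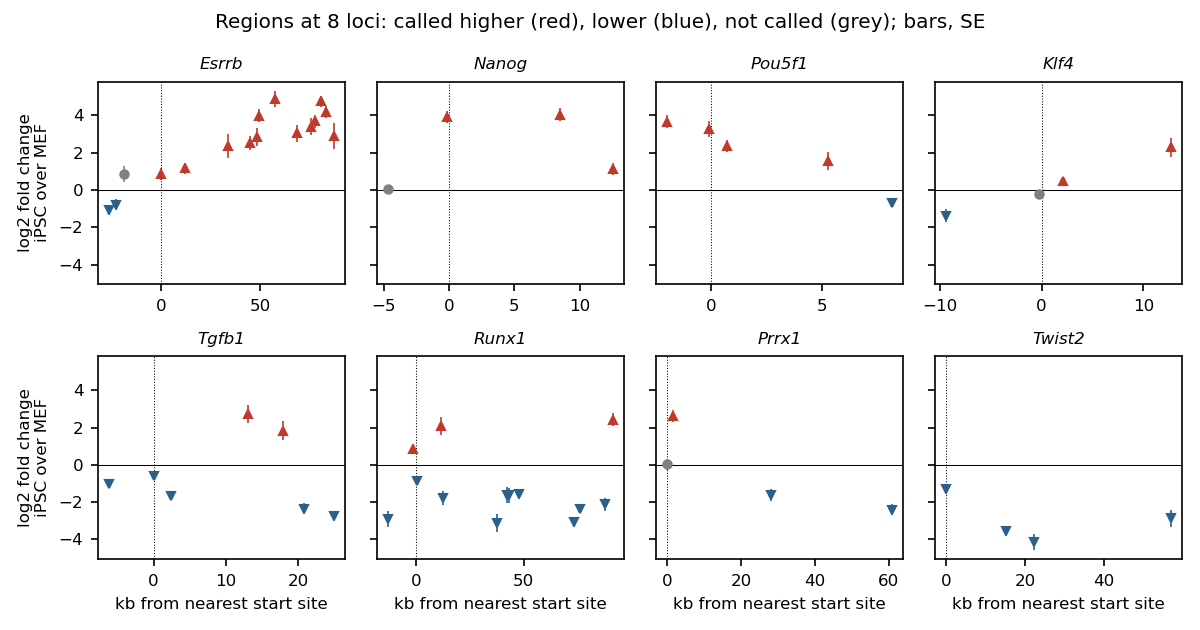
Log2 fold change (iPSC over MEF, with SE) of each tested region at 8 loci against its distance in kb from the nearest annotated start of the gene; red triangles were called higher, blue triangles lower and grey circles not called. Esrrb rises within the gene, Runx1 and Tgfb1 hold regions of both directions, and all 4 tested regions of Twist2 are lower.

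Genes of the LIF and JAK-STAT pathway, through which leukaemia inhibitory factor sustains mouse pluripotent cells, were higher in 3 of 13 and lower in 8, with a median of -0.37 (-2.05 under whole-library scaling). The receptor subunit Lifr was among the 3, at 155, 159 and 161 CPM in iPSC, against 70.3, 72.5 and 66.4 CPM in MEF. The shared signalling subunit Il6st, or gp130, had 82.5, 87.9 and 83.7 CPM in iPSC, against 46.2, 44.5 and 37.6 CPM in MEF. Both were apart from MEF, at log2 fold changes of 1.17 (SE 0.10, edgeR adjusted p = 1.65e-17) and 0.96 (SE 0.13, adjusted p = 3.22e-10), and they read -0.50 and -0.72 with whole-library scaling. Their starts were not called, at 0.09 (SE 0.20) for Lifr and 0.03 (SE 0.17) for Il6st. Osmr, the oncostatin M receptor subunit that pairs with Il6st in fibroblasts, was at 31.1, 23.3 and 36.1 CPM in iPSC, against 96.5, 79.4 and 74.8 CPM in MEF, lower in every iPSC library at -1.50 (SE 0.15, adjusted p = 5.02e-14).

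Primed epiblast genes, expressed after implantation, were also higher: 13 of 19, with 2 lower and a median of 1.15 (-0.52 under whole-library scaling). Otx2, a homeodomain factor of that state, had 28.2, 39.7 and 22.8 CPM in iPSC, against 1.84, 2.27 and 2.11 CPM in MEF. Foxd3, a forkhead factor, had 79.6, 80.9 and 77.1 CPM in iPSC, against 7.70, 9.66 and 12.6 CPM in MEF. The groups were far apart for both, at log2 fold changes of 3.86 (SE 0.28, edgeR adjusted p = 4.76e-21) and 3.05 (SE 0.16, adjusted p = 1.94e-28), with Sox3, a Sox2 relative, at 3.54 (SE 0.47). Car12, a carbonic anhydrase, was lower at -0.97 (SE 0.20, adjusted p = 2.41e-05). Fgf4, the growth factor that Oct4 and Sox2 drive in pluripotent cells, had 94.8, 84.0 and 82.8 CPM in iPSC, against 3.01, 6.63 and 5.27 CPM in MEF. All 5 of its regions were higher, and the sum rose by 4.16 on the log2 scale (SE 0.17, adjusted p = 4.20e-34). In the FGF and ERK pathway as a whole 13 of 22 were higher and 4 lower, with a median of 0.45 (-1.21 under whole-library scaling), and Fgf7, a growth factor that fibroblasts secrete to epithelium, was lower at -1.53 (SE 0.18, adjusted p = 2.76e-11).

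Fibroblasts are mesenchymal and pluripotent cells form an epithelium, and epithelial adhesion genes were higher in 22 of 32 and lower in 3 (median 0.81, and -0.85 under whole-library scaling). Epcam, a cell adhesion molecule, had 21.7, 25.7 and 22.8 CPM in iPSC, against 2.51, 2.46 and 4.56 CPM in MEF. Cdh1, which encodes E-cadherin, had 123, 92.6 and 114 CPM in iPSC, against 34.8, 38.6 and 49.2 CPM in MEF. Each was higher in all iPSC libraries, by 2.97 (SE 0.28, edgeR adjusted p = 2.00e-15) and 1.47 (SE 0.12, adjusted p = 3.96e-18) on the log2 scale, though Cdh1 read -0.19 with whole-library scaling. The tight-junction genes Cldn7 and Marveld2 stood at 3.18 (SE 0.52) and 3.06 (SE 0.25). Krt19, a keratin, went the other way with 23.2, 13.2 and 18.1 CPM in iPSC, against 41.7, 36.2 and 31.2 CPM in MEF, and its libraries did not overlap, at -1.01 (SE 0.19, adjusted p = 5.02e-06).

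Mesenchymal transcription factors moved both ways, with 8 of 26 higher (30.8%, against 32.1% of all genes) and 12 lower (46.2%, against 33.7%). Their median was -0.20 (-1.88 under whole-library scaling). Twist2, a basic helix-loop-helix factor of dermal mesenchyme, had 25.3, 15.6 and 18.1 CPM in iPSC, against 96.9, 106 and 109 CPM in MEF. All iPSC libraries were below all MEF libraries, at a log2 fold change of -2.38 (SE 0.16, edgeR adjusted p = 1.11e-22), and the iPSC mean lay under the even-spread value of 27.7 CPM. All 4 of its tested regions were lower, and chr1:91823251-91824000 held 1, 3 and 1 reads in iPSC, against 111, 114 and 62 reads in MEF. Prrx1, a homeodomain factor of limb mesenchyme, had 68.7, 64.6 and 58.0 CPM in iPSC, against 99.4, 89.4 and 92.3 CPM in MEF. It was lower without overlap, at -0.55 (SE 0.12, adjusted p = 8.16e-05), but the region chr1:163311751-163312200, inside the gene, had 16.3, 15.8 and 16.3 CPM in iPSC, against 3.37, 2.27 and 1.61 CPM in MEF. That region was higher at 2.62 (SE 0.34, adjusted p = 5.07e-11), and with regions within 1 kb of a start alone Prrx1 read 0.37 (adjusted p = 0.30). Foxd1 and Msx2, factors of stroma and of limb and skull, were higher at 1.25 (SE 0.25) and 1.21 (SE 0.17), and read -0.40 and -0.44 with whole-library scaling.

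Fibroblast matrix and surface genes were lower in 34 of 40, with 5 higher and a median of -0.78 (-2.45 under whole-library scaling). Thy1, a surface glycoprotein by which fibroblasts are sorted, had 26.8, 21.8 and 35.2 CPM in iPSC, against 54.5, 53.6 and 59.3 CPM in MEF. Thbs1, the matrix glycoprotein thrombospondin, had 35.5, 46.7 and 52.3 CPM in iPSC, against 163, 143 and 152 CPM in MEF. Neither overlapped, and both were lower, at log2 fold changes of -1.01 (SE 0.16, edgeR adjusted p = 1.39e-07) and -1.79 (SE 0.13, adjusted p = 2.19e-21). The proteoglycan Bgn and the surface protease Fap were lower at -2.69 (SE 0.34) and -2.03 (SE 0.29), each with 1 tested region of 3 and with an iPSC mean under the even-spread value. Anpep, an aminopeptidase, was higher at 1.16 (SE 0.25, adjusted p = 4.54e-05), and read -0.52 with whole-library scaling.

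Collagen genes were lower in 20 of 26 and higher in 1, with a median of -0.69 (-2.37 under whole-library scaling). Col1a1 and Col1a2 encode the chains of type I collagen, the main protein of fibroblast matrix. Col1a1 had 59.3, 65.3 and 73.3 CPM in iPSC, against 121, 126 and 114 CPM in MEF, and Col1a2 had 50.7, 52.1 and 52.3 CPM in iPSC, against 87.3, 79.2 and 81.5 CPM in MEF. Every iPSC library was lower, at -0.88 (SE 0.11, edgeR adjusted p = 1.40e-10) and -0.68 (SE 0.13, adjusted p = 2.36e-06) on the log2 scale. Upstream of Col1a1 the region chr11:94933351-94934100 had 5.69, 5.27 and 6.36 CPM in iPSC, against 34.3, 32.9 and 28.1 CPM in MEF, and fell without overlap at -2.47 (SE 0.28, adjusted p = 3.54e-13). Col6a3, Col15a1 and Col4a2 were lower at -1.84 (SE 0.18), -1.73 (SE 0.11) and -1.46 (SE 0.11), and Col4a2 turned to 0.58 (adjusted p = 0.039) where only regions within 1 kb of its start were used. Col10a1, a cartilage collagen, was the member that was higher, at 0.96 (SE 0.38, adjusted p = 0.023). It was not called without iPSC replicate 2 (adjusted p = 0.21) or MEF replicate 2 (adjusted p = 0.074). The iPSC mean of Col10a1 was not above 2 times the even-spread background. With that background subtracted, no collagen gene stayed higher.

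TGF-beta signalling maintains the mesenchymal state, and its pathway genes were lower in 20 of 25 and higher in none (median -0.71, and -2.36 under whole-library scaling). The ligand Tgfb1 had 81.0, 86.3 and 80.9 CPM in iPSC, against 163, 179 and 192 CPM in MEF. The receptor Tgfbr2 had 31.8, 51.3 and 52.3 CPM in iPSC, against 115, 116 and 115 CPM in MEF. Both were lower in every iPSC library, at log2 fold changes of -1.10 (SE 0.10, edgeR adjusted p = 3.00e-15) and -1.37 (SE 0.14, adjusted p = 2.45e-14). Of its 7 tested regions, Tgfb1 had 2 higher and 5 lower. The most reads in MEF were in chr7:25711551-25712300, which is shared with Ccdc97 and Hnrnpul1 and held 10, 13 and 9 reads in iPSC, against 285, 243 and 151 reads in MEF, at -2.77 (SE 0.22). Where regions linked to 1 gene only were kept, Tgfb1 turned to 2.90 (adjusted p = 1.04e-07), so its direction depends on which regions are counted.

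AP-1 genes, whose products open fibroblast enhancers, were lower in 8 of 14 and higher in 1 (median -0.32, and -1.98 under whole-library scaling). Fosl2 had 47.8, 52.9 and 53.3 CPM in iPSC, against 116, 121 and 102 CPM in MEF, and all iPSC libraries were lower, at a log2 fold change of -1.15 (SE 0.12, edgeR adjusted p = 1.23e-13). Fosl1, its close relative, had 47.8, 45.9 and 52.3 CPM in iPSC, against 54.0, 65.2 and 67.8 CPM in MEF. It was lower at -0.35 (SE 0.13, adjusted p = 0.019), a call that was lost without MEF replicate 2, MEF replicate 3, iPSC replicate 1 or iPSC replicate 2 (adjusted p = 0.093, 0.061, 0.085 and 0.10). Batf3 was lower at -0.98 (SE 0.40, adjusted p = 0.028) and was not called without MEF replicate 3, iPSC replicate 2 or iPSC replicate 3 (adjusted p = 0.082, 0.11 and 0.19).

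Among Runx, Cebp, Tead and other somatic factors 17 of 30 were lower and 4 higher, with a median of -0.29 (-1.97 under whole-library scaling). Runx1, a factor of blood and mesenchyme that binds many fibroblast enhancers, had 120, 128 and 146 CPM in iPSC, against 253, 254 and 254 CPM in MEF. It was lower in each iPSC library, at -0.96 (SE 0.09, edgeR adjusted p = 8.12e-15), with 10 of its 13 tested regions lower and 3 higher. Cebpa, a factor of fat and myeloid cells, had 18.1, 21.8 and 19.98 CPM in iPSC, against 55.7, 52.8 and 53.7 CPM in MEF, also without overlap at -1.44 (SE 0.17, adjusted p = 1.46e-11). Tead2, the Tead gene most used in early embryos, was higher at 1.44 (SE 0.15, adjusted p = 3.70e-13), and read -0.24 with whole-library scaling.

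**Figure D4:**
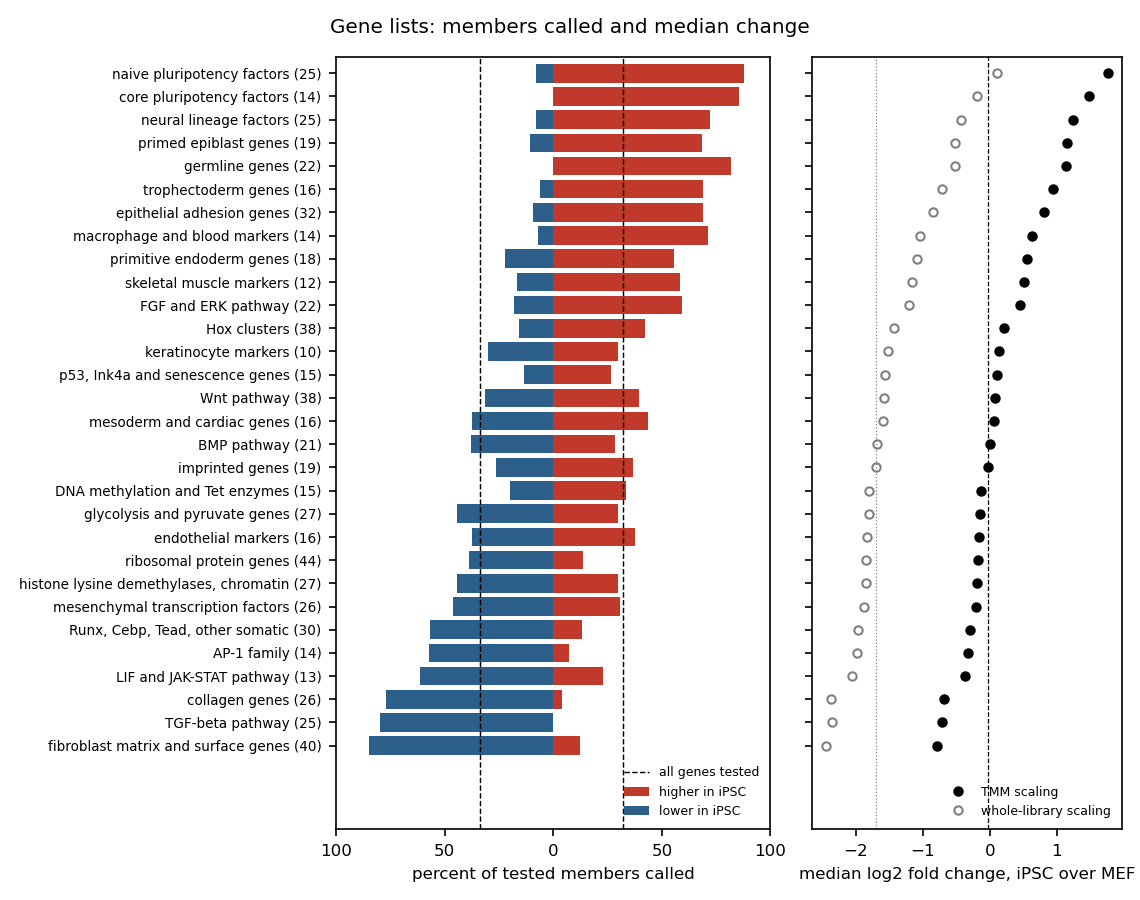
For each of 30 gene lists (tested members in parentheses), left, the percent of members higher (red) and lower (blue) in iPSC with dashed lines at the percent over all genes tested, and right, the median log2 fold change with TMM scaling (filled) and whole-library scaling (open), with vertical lines at the medians of all genes. Naive and core pluripotency lists stand at the top and fibroblast matrix genes at the bottom; with whole-library scaling the naive list alone has a median above 0.

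BMP pathway genes were higher in 6 of 21 (28.6%, against 32.1% of all genes) and lower in 8 (38.1%, against 33.7%). Their median was 0.00, and -1.68 under whole-library scaling. The ligand Bmp4 was higher at 1.55 (SE 0.19, edgeR adjusted p = 5.41e-11), the antagonist Fst at 1.28 (SE 0.14, adjusted p = 2.22e-13), while the target Id3, an inhibitor of differentiation factors, was lower at -1.35 (SE 0.13, adjusted p = 7.90e-16). Wnt pathway genes were higher in 15 of 38 (39.5%) and lower in 12 (31.6%), near the shares of all genes. Their median was 0.08, and -1.59 under whole-library scaling. Lef1, a nuclear effector of Wnt signals, had 92.6, 97.997 and 93.2 CPM in iPSC, against 25.4, 29.5 and 30.5 CPM in MEF. It was higher in all iPSC libraries at 1.75 (SE 0.13, adjusted p = 1.27e-20), with the inhibitors Dkk1 at 1.55 (SE 0.19) and Axin2 at 1.13 (SE 0.12), and the ligand Wnt2 lower at -0.94 (SE 0.15). With whole-library scaling Bmp4, Fst, Dkk1 and Axin2 read -0.12, -0.39, -0.12 and -0.55, and Lef1 0.08.

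DNA methylation and Tet enzymes were higher in 5 of 15 (33.3%, against 32.1% of all genes) and lower in 3 (20%, against 33.7%). Their median was -0.13, and -1.80 under whole-library scaling. Tet2, which oxidises methylated cytosine, had 214, 237 and 186 CPM in iPSC, against 60.6, 55.9 and 53.02 CPM in MEF. The groups were far apart, at a log2 fold change of 1.90 (SE 0.10, edgeR adjusted p = 1.13e-28), and 8 of its 9 tested regions were higher. The exception was the region over its start, which had 44.1, 61.0 and 40.0 CPM in iPSC, against 55.1, 50.1 and 37.3 CPM in MEF, overlapping at 0.01 (SE 0.16). Dnmt3l, the cofactor of the new-methylation enzymes, was higher at 1.04 (SE 0.16, adjusted p = 2.39e-08), and Mbd1, a methyl-DNA binding protein, lower at -0.69 (SE 0.16, adjusted p = 0.00011). Histone lysine demethylases and other chromatin regulators were higher in 8 of 27 (29.6%) and lower in 12 (44.4%). Their median was -0.19, and -1.85 under whole-library scaling. The Polycomb genes Mtf2 and Eed stood at 1.35 (SE 0.13) and 0.86 (SE 0.13) and the demethylase Kdm1a at -0.86 (SE 0.17). The start of Eed was not called at 0.02 (SE 0.16). With whole-library scaling Dnmt3l, Mtf2 and Eed read -0.64, -0.31 and -0.82.

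Germline genes were higher in 18 of 22 and lower in none (median 1.14, and -0.52 under whole-library scaling). Tex19.1, which silences transposons in germ and pluripotent cells, had 9.41, 9.33 and 10.5 CPM in iPSC, against 0.167, 0.189 and 1.76 CPM in MEF, and was above all MEF libraries at a log2 fold change of 4.13 (SE 0.51, edgeR adjusted p = 6.61e-11). Tcstv1 and Zscan4d, genes of the early cleavage embryo, stood at 4.48 (SE 0.69) and 3.33 (SE 0.56), but near-identical copies make the assignment of their reads uncertain. Senescence and p53 genes, which act as a barrier to reprogramming, were higher in 4 of 15 (26.7%) and lower in 2 (13.3%). Over all genes the shares were 32.1% and 33.7%. The list had a median of 0.11, and -1.57 under whole-library scaling. Cdkn2a, which encodes the Ink4a and Arf inhibitors, had 69.5, 84.8 and 75.2 CPM in iPSC, against 57.4, 55.1 and 62.1 CPM in MEF. It was higher without overlap at 0.40 (SE 0.12, adjusted p = 0.0023), and read -1.26 with whole-library scaling. Upstream the region chr4:89302001-89302650 had 4.26, 3.01 and 3.63 CPM in iPSC, against 19.6, 18.4 and 20.5 CPM in MEF, lower at -2.39 (SE 0.35, adjusted p = 3.68e-09) beside chr4:89303451-89304000 at 1.22 (SE 0.32, adjusted p = 0.00039).

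Genes of other lineages were also covered by regions that were higher in iPSC, where the even-spread background is higher too. For neural, trophectoderm and primitive endoderm genes it summed to 390, 363 and 486 CPM in iPSC, against 116, 108 and 145 CPM in MEF. The full sums, in that order, were 1182 to 1283, 828 to 902 and 909 to 931 CPM in iPSC. In MEF they were 581 to 645, 565 to 580 and 982 to 1078 CPM. Of the genes called higher, 16, 8 and 9 had an iPSC mean above 2 times the background. Neural lineage factors were higher in 18 of 25 and lower in 2 (median 1.25, and -0.42 under whole-library scaling), and trophectoderm genes in 11 of 16 with 1 lower (median 0.94, and -0.72 under whole-library scaling). Neurod1, a factor of neuronal differentiation, had 49.9, 70.8 and 56.1 CPM in iPSC, against 8.87, 7.58 and 10.2 CPM in MEF, and Cdx4, a homeobox factor, had 17.4, 16.3 and 16.2 CPM in iPSC, against 0.335, 0.189 and 0.351 CPM in MEF. Both were far from the MEF libraries, at 2.75 (SE 0.18, edgeR adjusted p = 3.36e-23) and 5.62 (SE 0.45, adjusted p = 8.58e-19). Primitive endoderm genes were higher in 10 of 18 and lower in 4 (median 0.56, and -1.09 under whole-library scaling), with Sox17, its key factor, at 46.3, 70.0 and 60.9 CPM in iPSC, against 3.01, 2.46 and 7.72 CPM in MEF. Sox17 did not overlap, at 3.93 (SE 0.22, adjusted p = 3.36e-25), while Dab2, an endocytic adaptor, was lower at -1.12 (SE 0.13). Plac1, a placental gene on the X chromosome, was lower with 15.2, 13.2 and 13.3 CPM in iPSC, against 83.0, 80.1 and 65.7 CPM in MEF, all apart at -2.46 (SE 0.18, adjusted p = 1.38e-20), with an iPSC mean under the even-spread 38.7 CPM.

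Markers of other cell types that a culture could hold were not confined to either group. Blood and macrophage markers were higher in 10 of 14 and lower in 1, with a summed level of 465 to 495 CPM in iPSC and 325 to 330 CPM in MEF, while 4 listed markers, Adgre1, Lyz2, Gata1 and Hbb-bs, were not tested. Endothelial markers were higher in 6 of 16 and lower in 6 (831 to 864 CPM in iPSC and 842 to 904 CPM in MEF), with the endothelial surface protein Emcn at -2.84 (SE 0.25) and the receptor Tie1 at -2.34 (SE 0.31) against the tight-junction gene Cldn5 at 2.48 (SE 0.22). Skeletal muscle markers were higher in 7 of 12 and lower in 2 (376 to 394 CPM in iPSC and 335 to 370 CPM in MEF), and keratinocyte markers higher in 3 of 10 and lower in 3 (376 to 430 CPM in iPSC and 391 to 395 CPM in MEF). The medians of these lists were 0.64, -0.16, 0.51 and 0.14, and -1.04, -1.84, -1.16 and -1.52 with whole-library scaling. In the same order, the even-spread background summed to 187, 454, 205 and 212 CPM in iPSC. In MEF it summed to 55.5, 135, 61.1 and 63.0 CPM, and the sums above include it. Of the higher members, 7, 6, 6 and 2 had an iPSC mean above 2 times that background. Endothelial (37.5% each way) and keratinocyte counts (30% each way) stood near the 32.1% higher and 33.7% lower of all genes. The part of these cell types in the results above was not tested.

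Ribosomal protein genes were higher in 6 of 44 (13.6%, against 32.1% of all genes) and lower in 17 (38.6%, against 33.7%). Their median was -0.18, and -1.85 under whole-library scaling. Glycolysis and pyruvate genes were higher in 8 of 27 (29.6%) and lower in 12 (44.4%), with medians of -0.14 and -1.81. Ldhb, a lactate dehydrogenase subunit, was higher with 119, 125 and 124 CPM in iPSC, against 42.8, 36.9 and 44.2 CPM in MEF, all apart at a log2 fold change of 1.58 (SE 0.11, edgeR adjusted p = 1.92e-21). Imprinted genes were higher in 7 of 19 (36.8%) and lower in 5 (26.3%), with a median of -0.02 (-1.71 under whole-library scaling). Phlda2, a regulator of placental growth, stood at 2.30 (SE 0.19) and Igf2r, the receptor that clears Igf2, at -0.85 (SE 0.13). Where only regions within 1 kb of its start were used, Igf2r turned to 0.93 (adjusted p = 0.0045). Hox genes, which record the position of fibroblasts along the body, were higher in 16 of 38 and lower in 6 (median 0.22, and -1.43 under whole-library scaling), led by Hoxb13, the last gene of its cluster, at 3.73 (SE 0.33), while Hoxa4 was lower at -0.89 (SE 0.19). Mesoderm and cardiac genes were higher in 7 of 16 and lower in 6 (median 0.07, and -1.59 under whole-library scaling), with Isl1 at 1.86 (SE 0.13) and Tnnt2 at -1.25 (SE 0.15), and Tnnt2 was not called with regions linked to 1 gene only (adjusted p = 1.00).

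Clusters of microRNAs mark each cell type, and their loci were compared over the regions within 10 kb of the annotated hairpins. Over all regions tested 40.8% were higher and 40.8% lower, and the counts at each locus are read beside these shares. The miR-290 and miR-302 clusters are the main microRNAs of pluripotent cells, and the mature sequences below, from RefSeq on GRCm38.p6, are 5 from both clusters that share the seed AAGUGCU, which is in capitals (bases 2 to 8). The last 2 are fibroblast microRNAs, shown for contrast.
mmu-miR-291a-3p: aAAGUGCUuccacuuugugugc
mmu-miR-294-3p: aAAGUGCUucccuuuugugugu
mmu-miR-295-3p: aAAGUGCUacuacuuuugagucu
mmu-miR-302b-3p: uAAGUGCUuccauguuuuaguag
mmu-miR-302d-3p: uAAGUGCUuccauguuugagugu
mmu-miR-21a-5p: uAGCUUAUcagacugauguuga
mmu-miR-199a-3p: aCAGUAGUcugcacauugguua
The seed lies in the part of the microRNA that pairs with targets, so the miRNAs with the shared seed are read as a family.

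All 4 tested regions at the miR-290 cluster (chr7:3218626-3220841) were higher, and their sum was 111, 120 and 67.2 CPM in iPSC, against 5.94, 5.67 and 12.4 CPM in MEF. Each iPSC library was above all of MEF, and the regions' log2 fold changes ran between 3.21 (SE 0.26) and 4.73 (SE 0.36, edgeR adjusted p = 2.07e-21). The region at the upstream edge of the miR-302 hairpins (chr3:127544501-127545250) had 22.0, 15.8 and 14.5 CPM in iPSC, against 0.594, 0.453 and 0.803 CPM in MEF. It was likewise apart, at 4.78 (SE 0.41, adjusted p = 9.61e-19), and a region farther away in the gene's flank (chr3:127552701-127553650) was lower at -0.54 (SE 0.17, adjusted p = 0.0022), with overlapping libraries and a call lost without iPSC replicate 3 (adjusted p = 0.057) and with the iPSC and MEF libraries alone (adjusted p = 0.32). The miR-200 cluster, which represses the Zeb factors of mesenchymal cells, had a region that was higher at 2.57 (SE 0.36, adjusted p = 4.95e-10).

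Regions at the fibroblast microRNAs miR-199a with miR-214 and miR-21 moved the other way. The regions of miR-199a and miR-214 summed to 13.5, 7.53 and 13.6 CPM in iPSC, against 97.1, 86.8 and 79.9 CPM in MEF, and all 3 were lower, at -3.28 to -2.75. Those of miR-21 summed to 39.8, 44.4 and 44.5 CPM in iPSC, against 153, 141 and 133 CPM in MEF, and all 5 were lower, the strongest (chr11:86586651-86587550) at -2.51 (SE 0.22, edgeR adjusted p = 3.26e-18). The weakest of them (chr11:86575701-86576450), at -0.67 (SE 0.26), was not called without iPSC replicate 1 or 2 (adjusted p = 0.050 and 0.14) or with the 6 libraries alone (-0.33, adjusted p = 0.23). The summed iPSC levels were below every MEF library at both clusters. The miR-29 regions, next to hairpins whose products target collagen messages, were lower in 3 of 3 and those of miR-22 in 4 of 6, against 40.8% of all tested regions. Of the miR-22 calls, chr11:75454401-75455050 was lost without iPSC replicate 2 or 3 (adjusted p = 0.066 and 0.060) and chr11:75458501-75459050 without iPSC replicate 1 or 3 (adjusted p = 0.068 and 0.17), and with the 6 libraries alone neither was called (adjusted p = 0.12 and 0.19). At miR-34a, a p53 target, 1 region was higher and 3 lower, and at the miR-17 cluster 1 higher and 2 lower, 1 of them (chr14:115041801-115042600) called at -0.40 (SE 0.18, adjusted p = 0.039). That call was lost without MEF replicate 1, MEF replicate 2, iPSC replicate 2 or iPSC replicate 3 (adjusted p = 0.11, 0.052, 0.14 and 0.64).

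**Figure D5:**
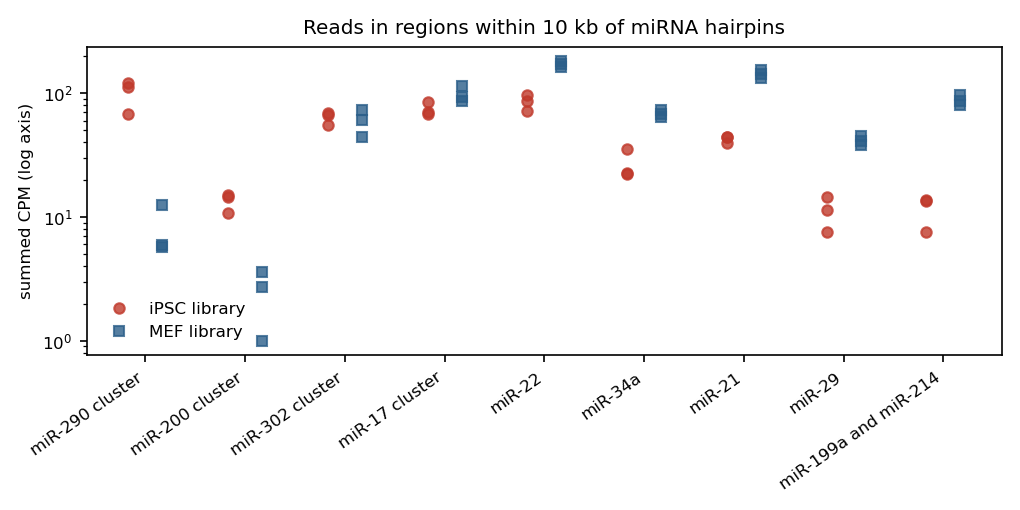
Summed CPM of tested regions within 10 kb of the hairpins of 9 microRNA loci in each library (log axis), with iPSC libraries as circles and MEF libraries as squares. The miR-290 and miR-200 loci are higher in iPSC, the miR-302 sum, most of it in the flank region, overlaps between the groups, and miR-21, miR-29 and miR-199a with miR-214 are lower; whole-library scaling moves all iPSC values down together.

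The strongest single rises and falls lay away from gene ends. On the X chromosome chrX:64978751-64979450, between genes, held 27, 24 and 23 reads in iPSC and 0 in each MEF library, which puts the rise at 76.9-fold at least when MEF is set to a floor of 3 reads over the group. Inside Col24a1, a collagen gene, chr3:145443051-145443850 held 34, 38 and 39 reads in iPSC, against 0, 0 and 1 in MEF, a ratio of 346 with a counting interval of 60.8 to 13781. The strongest fall, chr15:90431951-90432850 between genes, held 1, 2 and 4 reads in iPSC, against 397, 352 and 178 in MEF, and MEF was 42.5 times higher per in-region read (20.5 to 106). Others of the 6 largest falls were at Col22a1, at Nrxn3 and near Ptx3, an immune pattern receptor that fibroblasts make. Counting intervals are exact at 95% and cover counting error only.

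At the level of genes with ample reads the 6 largest rises were Smgc, Cyp4a31, F13b, Krtap13-1, Mup4 and Aadacl2fm3, at log2 fold changes of 6.16 to 4.99. F13b, a clotting factor subunit made by liver, had 88.3, 73.9 and 75.2 CPM in iPSC, against 1.17, 1.89 and 2.46 CPM in MEF. Its 2 tested regions were higher and its libraries far apart, at 5.50 (SE 0.23, edgeR adjusted p = 8.21e-34). Cyp4a31, Mup4 and Aadacl2fm3 belong to families with near-identical copies, so their reads may be shared with neighbours. The 6 largest falls were 1700012B07Rik, Adamts16, Kcnj15, Serpina9, Fam135b and Krtap1-4, at -2.66 to -2.49. Adamts16, a matrix metalloproteinase, had 50.7, 62.2 and 66.6 CPM in iPSC, against 371, 375 and 351 CPM in MEF. It was lower in all iPSC libraries at -2.63 (SE 0.11, adjusted p = 4.20e-34), with 13 of 14 tested regions lower. Over all 22 of its regions the iPSC mean was under the even-spread 107 CPM.

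Called regions of 1 direction also stood in rows. Of the 145 rows of at least 10 neighbouring regions that were all higher, the longest held 57 regions each. The first spans chr4:145295501-147405000, a cluster of zinc finger genes with Rex2, Zfp600 and Zfp978, with sums of 923, 979 and 887 CPM in iPSC, against 99.4, 107 and 204 CPM in MEF. The second spans chr11:3125301-3200050 over Sfi1, a centrosomal gene, with 6937, 6563 and 7143 CPM in iPSC, against 1073, 1895 and 3337 CPM in MEF. Near-identical copies in both places make the assignment of their reads uncertain. The next, of 38 regions, spans chr1:7451651-9541700 with Sntg1, a syntrophin gene, at 535, 578 and 505 CPM in iPSC, against 25.9, 34.9 and 53.8 CPM in MEF. Of 130 rows that were all lower, the longest had 25 regions at chr6:34453201-34797400 over Cald1, which encodes the actin-binding protein caldesmon, with 150, 154 and 170 CPM in iPSC, against 584, 528 and 498 CPM in MEF. Others lay at chr4:64235351-65053850, with 22 regions and no gene, and at chr2:27699401-27937150 over the collagen gene Col5a1, with 21. In each of these rows all iPSC libraries were on the same side of all MEF libraries.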

How the data were processed

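ATAC-seq was analysed in 3 iPSC and 3 MEF libraries, with the other 6 libraries of the series in the same model. The authors deposited read counts per region, raw and not normalized, with totals of reads in no region or in several, for each library. The submitters' processing notes name HTSeq 0.5.4p3 and DESeq2 1.12.4, besides SAMtools 0.1.19, Bowtie2 2.2.6 and Picard 2.6.0, and the mm10 build, without their roles. Peak calling, duplicates and any shift of read ends are not given in the sources used here. The 5 summary rows stayed out of library sizes and tests, and ambiguous reads made up at most 0.230% of a library.

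Tests on these counts used edgeR 4.0.16 under R 4.3.3, with two-sided robust quasi-likelihood tests and TMM scaling. The filterByExpr step asked for 10 reads, scaled to library size, in at least 3 libraries, and for 15 reads in all. Those libraries can be of 1 group, so a region can pass through that group alone. A joint model of the 4 groups was fitted, with the contrast iPSC minus MEF and Benjamini-Hochberg adjustment over all regions or genes tested. The iPSC against MEF p-values thus share 1 estimate of spread over the 12 libraries. Gene values are counts summed over the regions within 10 kb of protein-coding genes of GRCm38.p6, which is mm10 (GenomicRanges 1.54.1). Standard errors were derived from the fold change and its F statistic. The even-spread background is the read density outside regions times a region's width. The tests were also run on simulated counts in which few features changed, as many up as down, with 1 spread for all. In the real data most regions were called and the background differed between the groups. The simulation does not cover those conditions.

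Groups and replicate numbers come from the labels, which leave the origin of the replicates unstated. The p-values therefore reflect how far these libraries vary, and that variation may be technical only. Replicates of a group varied beyond sampling noise in all pairs (chi-square per degree of freedom of 1.05 to 1.10 in iPSC and 1.20 to 2.14 in MEF), so none was merged. Same-numbered iPSC and MEF libraries did not deviate together (correlations of -0.02, -0.02 and -0.04), so the numbers do not pair them.

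The comparison, the 30 gene lists and the rules below were chosen with earlier results of these data known. Named genes were a set of 24 marker genes, per list the 3 called members with the largest change and without overlap plus the largest against the trend, and the 6 largest rises and falls among genes averaging 4 or more in log2 CPM. Named regions were the 6 largest rises and falls among those averaging 2 or more in log2 CPM, the largest rise and fall at each of the 24 genes, and the 3 longest rows in each direction. Further regions at these loci, the start regions and the microRNA regions were chosen for display after their values were seen. Of the genes, 17492 had a start in the promoter table. Alternatives were RLE and whole-library scaling, DESeq2 1.42.0, no filter, the 6 libraries alone, a replicate block, each library left out, thinning to equal in-region reads, a 2-fold threshold (glmTreat), other gene links and a background minimum. Some genes that the rule picks are not reported here.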

Additional observations from a re-analysis of the deposited data

How the results depend on the processing

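Of 130 named genes, 130 kept direction and call with RLE scaling, 130 with no filter, 127 with DESeq2, and 86 with a 2-fold threshold. A replicate block, tried although the numbers do not pair the libraries, changed no call of a named gene or region and gave 28888 regions higher and 28967 lower, and 5618 genes higher and 5896 lower.

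Leaving out 1 iPSC or MEF library at a time gave 28701 to 30825 regions higher, 28633 to 31344 lower, 5272 to 5627 genes higher and 5074 to 5836 lower. Without MEF replicate 1, chosen for its high in-region share after the data were seen, the counts were 29286, 29695, 5627 and 5836. The difference in the share of reads in regions ran from -14.4 to -9.07 percentage points, and that near gene ends from 0.579 to 1.61.

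Whole-library scaling gave 16839 regions higher (29.1% of called regions), 797 genes higher, 15174 lower, 1 list of 30 (17 with TMM) with more members higher than lower, 9.25% of called regions near gene ends higher, and a longest higher row of 29. The 2-fold threshold gave 18498 regions lower, 1704 genes higher, 538 lower and 63.5% near gene ends, and thinning to equal in-region reads 16974 regions lower. With no filter the share near gene ends was 61.2% and the longest lower row 16. Regions within 1 kb of a gene start gave 3237 genes higher and 2955 lower, and moved 36 of 60 list counts past 1.5 times, against 13 with regions linked to 1 gene only. Subtracting the even-spread background, also added after the data were seen, left 28836 regions and 4740 genes higher. The cause was not tested.

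Under whole-library scaling the sign turned for Anpep (-0.52), Apobec1 (-0.17), Axin2 (-0.55), Bmp4 (-0.12), Cdh1 (-0.19), Cdkn1c (-0.77), Cdkn2a (-1.26), Col10a1 (-0.70), Dio3 (-0.34), Dkk1 (-0.12), Dnmt3l (-0.64), Eed (-0.82), Foxd1 (-0.40), Fst (-0.39), Hoxc12 (-0.39), Hoxd1 (-0.038), Il6st (-0.72), Klf4 (-1.43), Ldhb (-0.10), Lifr (-0.50), Lin28a (-1.42), Msx2 (-0.44), Mtf2 (-0.31), Myc (-1.18), Nanog (-0.56), Pdk4 (-0.23), Plagl1 (-0.023), Pou5f1 (-0.82), Tead2 (-0.24) and the Cdkn2a region chr4:89303451-89304000 (-0.18). With regions near starts it turned for Apobec1 (-0.16), Col4a2 (0.58), Igf2r (0.93), Msx2 (-0.48), Prrx1 (0.37) and Wnt2 (0.34), and with regions of 1 gene for Tgfb1 (2.90). The miR-22 region chr11:75467651-75468250 was not called in the main fit. It turned to 0.077 with the 6 libraries alone, 0.044 with thinned in-region reads and 0.082 with no filter, and was not called there either. Under whole-library scaling it was called, at -1.64 (edgeR adjusted p = 7.00e-05). With no filter the miR-17 region chr14:115040451-115041150 read 0.00083.

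Depth limits regions with few reads: iPSC libraries hold 1034936 to 1331836 in-region reads, and the iPSC mean is under the even-spread background in 16175 tested regions.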
